A study of Mus musculus with 34 samples.

Results

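The levels of 10 genes of the contractile apparatus of smooth muscle and of its transcriptional control were compared in J1 mESCs cultured with and without Royalactin: Tagln, Acta2, Actg2, Cnn1, Cnn2, Tpm1, Tpm2, Myl9, Srf and Mkl1. They were picked by gene symbol, and all 10 were found among the 23366 rows of the table of normalized counts. They were chosen with the values of this comparison known, so their levels and changes are a description and carry no test. The other gene lists used below were also drawn up with earlier results of these data known. Their counts and shares are likewise a description. J1 is a mouse embryonic stem cell line, and everything here rests on this line alone. RNA-seq was available for 2 libraries of cells in serum without LIF (serum/-LIF) and 2 of cells in the same medium with Royalactin, the main royal jelly protein, at 0.5 mg/ml (serum/-LIF + Royalactin). Both groups therefore lacked LIF, the cytokine that keeps mESCs undifferentiated in serum, and both grew on gelatin at a passage labelled 40, whereas the text of the study gives an earlier one. The 30 ATAC-seq libraries of the series were not analysed here.

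Smooth muscle contracts through filaments of actin on which myosin pulls. Acta2 and Actg2 encode smooth-muscle actins, Tpm1 and Tpm2 the tropomyosins that wind along the filament, Cnn1, Cnn2 and Tagln (SM22 alpha) the related calponins and transgelin that bind it, and Myl9 a regulatory light chain of myosin II. Many of these genes are targets of serum response factor, Srf, which binds a short AT-rich element called the CArG box. Srf works with cofactors of 2 classes. Mkl1 (also called MRTF-A) is held in the cytoplasm by monomeric actin and enters the nucleus when actin polymerises, where it drives cytoskeletal and contractile genes. The ternary complex factors such as Elk1 and Elk4 are instead activated by ERK and drive immediate early genes such as Fos and Egr1. Several contractile genes are not confined to muscle and are also expressed in fibroblasts and other spread, adherent cells.

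The promoters were examined because the CArG box links the contractile members to Srf. No promoter sequence was read to choose the members. Many of them are known targets of Srf, however, so a share of boxes above that of all genes follows in part from the grouping. The shares below are a description. Promoter windows of RefSeq (GRCm38.p6), 250 bases before to 50 after each start, were at hand for 8 of the 10 members, with no entry for Tagln and Actg2. An exact CArG box was present in 3 of these 8 (Srf, Cnn2 and Myl9), against 1.81% of the 27025 genes with a window and 1.56% of the 9542 of them that were tested for expression. Of the contractile members alone, 2 of 6 with a window had one. The box reads the same class of letters on both strands, so that one search covers both. With 1 mismatch allowed, 6 of 8 members had a box, against 23.8% of all genes with a window. The bases before the start of the 3 genes with an exact box and of Acta2 are shown 5′ to 3′ up to the RefSeq start or, where it comes earlier, the first annotated exon base, at the place in mm9, the build of the alignment, where each matched once, with the boxes in capitals. In Acta2 the capitals mark boxes with 1 mismatch.
Srf, chr17:46693112-46693361, minus strand: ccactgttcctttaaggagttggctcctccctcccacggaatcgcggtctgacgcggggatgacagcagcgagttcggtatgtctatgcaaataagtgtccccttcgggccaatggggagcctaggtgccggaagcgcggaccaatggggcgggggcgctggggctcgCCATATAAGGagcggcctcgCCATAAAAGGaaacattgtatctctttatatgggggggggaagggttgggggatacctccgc
Cnn2, chr10:79451095-79451328, plus strand: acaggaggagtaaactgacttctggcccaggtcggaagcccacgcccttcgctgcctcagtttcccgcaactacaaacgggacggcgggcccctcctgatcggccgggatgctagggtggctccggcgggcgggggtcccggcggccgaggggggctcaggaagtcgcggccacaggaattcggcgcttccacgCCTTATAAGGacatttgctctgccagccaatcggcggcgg
Myl9, chr2:156600950-156601155, plus strand: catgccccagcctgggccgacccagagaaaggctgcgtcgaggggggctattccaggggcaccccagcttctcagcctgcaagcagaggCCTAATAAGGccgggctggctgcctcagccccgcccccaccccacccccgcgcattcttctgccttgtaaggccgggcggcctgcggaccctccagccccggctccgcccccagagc
Acta2, chr19:34329864-34330113, minus strand: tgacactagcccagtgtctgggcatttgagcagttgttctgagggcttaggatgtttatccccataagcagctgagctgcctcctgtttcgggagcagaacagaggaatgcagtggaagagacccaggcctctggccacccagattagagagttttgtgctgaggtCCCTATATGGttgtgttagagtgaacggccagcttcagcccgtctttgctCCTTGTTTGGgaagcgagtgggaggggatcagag
Srf itself had boxes at bases -82 to -73 and -62 to -53 from its start. The box of Cnn2 lay at -56 to -47, that of Myl9 at -161 to -152, and those of Acta2 at -84 to -75 and -34 to -25. Among the family relatives of the contractile members, 5 of 14 with a window had an exact box (Acta1, Actc1, Actg1, Myl6 and Myl7). Of the other genes listed below, 5 of 16 cytoskeletal Srf targets, 3 of 20 smooth-muscle genes and 1 of 7 immediate early targets with a window had one. None of the 16 other Srf cofactors and regulators with a window had one. A match describes the letters of these windows and not occupancy by the factor.

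The gene counts of a library summed to between 14737796 and 17597818 reads. The precursor of ribosomal RNA, Rn45s, took 46.6% and 38.4% of them in the libraries numbered 1 and 21.6% and 9.08% in those numbered 2, in serum/-LIF and with Royalactin respectively. All 8 mESC markers listed were detected in all 4 libraries. Pou5f1 (Oct4) had 4996 to 5407 normalized counts in serum/-LIF and 5140 to 7453 with Royalactin. Tests used limma on log2(normalized count + 1) for the 12993 genes whose normalized counts averaged at least 10, with Benjamini-Hochberg adjustment over all of them. The labels number the libraries of a condition and do not say which culture each came from, so that p-values measure only the spread between these libraries.

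Of the 8 contractile members, 7 had lower normalized counts in both Royalactin libraries than in either serum/-LIF library: Tagln, Acta2, Cnn1, Cnn2, Tpm1, Tpm2 and Myl9. They were 2.37-fold to 12.1-fold lower with Royalactin, where these and later folds are log2 fold changes of normalized count + 1 turned back to a linear scale. Srf and Mkl1 overlapped between the conditions, and Actg2 was at 0 or 1 read in every library. Summed over the 8 contractile members, normalized counts were 10269 and 13095 in serum/-LIF and 1966 and 2691 with Royalactin. In the fit over all genes, 3 of the 9 members that passed the filter (Tagln, Tpm1 and Cnn1) had a Benjamini-Hochberg adjusted limma p under 0.05, all lower. Since the members were chosen with these values known, this count is a description and no test of them. Without the variance trend the count was 0. Among all tested genes 0.162% were called lower and 0.331% higher. Non-overlap with both Royalactin libraries on the lower side was seen in 18.9% of tested genes, and on the higher side, where there was no member, in 19.7%. A fold change of at least 2 was seen on the lower side in 7 members and 10.0% of tested genes, and on the higher side in no member and 9.55% of tested genes. These shares of the members follow from how they were chosen. The median log2 fold change was -1.49 over the 9 tested members and -0.01 over all tested genes, and it was -1.86 without Royalactin replicate 2. In these bulk libraries fewer cells expressing a gene and less of its RNA per cell cannot be told apart.

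**Figure D1:**
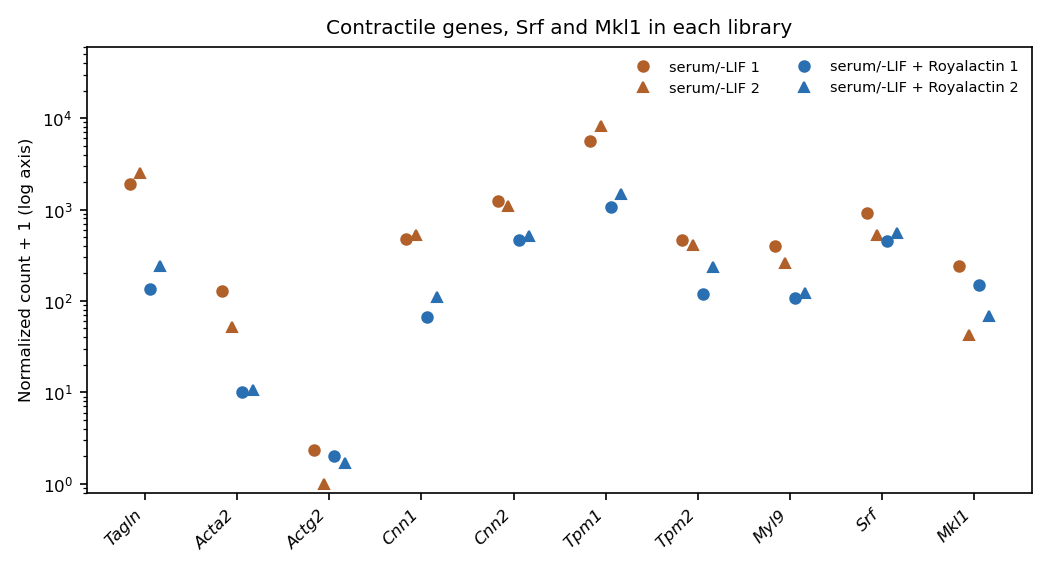
Normalized count + 1 (log axis) of each member in the 4 libraries, with serum/-LIF in brown, serum/-LIF + Royalactin in blue, circles for replicate 1 and triangles for replicate 2. For 7 contractile genes the blue points lie below both brown points, whereas those of Srf and Mkl1 are interleaved and Actg2 sits at the bottom of the axis.

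Tagln, which encodes transgelin, an actin-binding protein used as an early marker of smooth muscle, had the lowest log2 fold change of the members. It had 1896 and 2524 normalized counts in serum/-LIF and 135 and 240 with Royalactin, so that the groups were far apart. The log2 fold change of Tagln was -3.60 (standard error 0.36), or 12.1-fold lower with Royalactin. Tagln lies on chromosome 9, 45737711 to 45744141 of mm9, and 4.10% of its exon bases overlap exons of Pcsk7 on the opposite strand. Pcsk7 had 171 and 120 normalized counts in serum/-LIF and 82.5 and 140 with Royalactin, and its groups overlapped.

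Cnn1, basic calponin, which slows the myosin ATPase on the actin filament (chromosome 9, 21903725 to 21914074), had 473 and 526 normalized counts in serum/-LIF and 66.4 and 110 with Royalactin. Its log2 fold change was -2.53 (standard error 0.44), or 5.78-fold lower. Cnn2, a calponin found in many cells outside muscle (chromosome 10, 79451329 to 79458807), differed less. It had 1228 and 1085 normalized counts in serum/-LIF and 460 and 516 with Royalactin, with a log2 fold change of -1.24 (standard error 0.31). Of 75-base tiles of its exons, 5% also matched elsewhere in mm9 with up to 2 mismatches, and no tile of the other 9 members did.

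Their relatives outside the chosen members were measured as well. Tagln2, the transgelin of cells other than muscle, had 634 and 731 normalized counts in serum/-LIF and 306 and 366 with Royalactin, and its log2 fold change of -1.02 missed the threshold (limma, Benjamini-Hochberg adjusted p = 0.306). Cnn3, acidic calponin, had 3486 and 2793 against 2755 and 2530 normalized counts (log2 fold change -0.24, limma adjusted p = 0.849). Tagln3, the neuronal transgelin, was low throughout, at 5.03 to 41.4 normalized counts. As a share of the summed counts of all 6 transgelin and calponin genes, Tagln, Cnn1 and Cnn2 together took 50.1 ± 5.11% in serum/-LIF and 20.3 ± 3.66% with Royalactin (SD, n = 2). This share is taken within each library and needs no scaling between libraries. Its numerator is made of the chosen members, so here and in the families below a lower share partly restates that choice.

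Tpm1, the member with the most reads, encodes alpha-tropomyosin and, by alternative splicing, both muscle and non-muscle forms that gene counts do not separate (chromosome 9, 66870397 to 66897213). It had 5678 and 8246 normalized counts in serum/-LIF and 1069 and 1461 with Royalactin, with a wide gap between the groups. Its log2 fold change was -2.45 (standard error 0.31), or 5.47-fold lower with Royalactin. Tpm2, beta-tropomyosin (chromosome 4, 43527583 to 43536637), had 464 and 406 against 119 and 233 normalized counts. Its log2 fold change was -1.38 (standard error 0.43), and the Royalactin replicates differed by 0.97 on the log2 scale. Tpm4, a non-muscle tropomyosin, was lower in both Royalactin libraries (1738 and 1721 against 3438 and 4438 normalized counts) without passing the threshold (log2 fold change -1.18, limma adjusted p = 0.132). Tpm3 had 3642 and 4641 normalized counts in serum/-LIF and 3556 and 4020 with Royalactin, and its groups overlapped (log2 fold change -0.12, limma adjusted p = 0.934). Tpm1 and Tpm2 took 47.6 ± 1.65% of the counts of the 4 tropomyosin genes in serum/-LIF and 20.6 ± 3.15% with Royalactin (SD, n = 2).

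Acta2, alpha smooth-muscle actin (chromosome 19, 34315580 to 34329826), was a weakly expressed member. It had 128 and 50.7 normalized counts in serum/-LIF, uneven between the replicates, and 9.05 and 9.64 with Royalactin. These values stand for 96 and 49 reads in serum/-LIF and 9 and 14 reads with Royalactin. Its log2 fold change was -2.98 (standard error 0.95). Acta2 passed the filter on low values through its serum/-LIF level alone, so among tested genes it could only be lower. Actg2, gamma smooth-muscle actin (chromosome 6, 83462899 to 83486259), had 1 and 0 reads in serum/-LIF and 1 and 1 with Royalactin. All of these lie under a floor of 3 reads, and a difference was not detectable at this depth.

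The cytoplasmic actins, which build the cytoskeleton of every cell, were far more abundant. Actb had 32378 and 25673 normalized counts in serum/-LIF and 23939 and 27274 with Royalactin, so that the groups overlapped (log2 fold change -0.17, limma adjusted p = 0.929). Actg1 had 28698 and 19566 against 19538 and 18069 normalized counts (log2 fold change -0.33, limma adjusted p = 0.837). Exon tiles matched elsewhere in the genome for 60.6% of Actg1 and 16.7% of Actb, and the counts of both are therefore uncertain. Of the striated-muscle actins, the skeletal gene Acta1 had 49.5 and 91.1 normalized counts in serum/-LIF and 0 and 0.688, or 0 and 1 read, with Royalactin (limma adjusted p = 0.193). Actc1, the cardiac gene, overlapped, at 14.7 and 36.2 against 15.1 and 6.88 normalized counts. Acta2 and Actg2 took 0.212% and 0.112% of the counts of the 6 actin genes in serum/-LIF and 0.0231% and 0.0228% with Royalactin. The smooth-muscle actins were thus a very small part of actin RNA in all 4 libraries.

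Myl9 (chromosome 2, 156601156 to 156607394) had 400 and 258 normalized counts in serum/-LIF and 108 and 120 with Royalactin. Its log2 fold change was -1.49 (standard error 0.45), or 2.80-fold lower. The related light chains of non-muscle myosin, Myl12a and Myl12b, had log2 fold changes of -0.68 and -0.49 (limma, Benjamini-Hochberg adjusted p = 0.511 and 0.680), with no overlap between the conditions for either. Myl9 took 12.2% and 6.43% of the counts of these 3 genes in serum/-LIF and 5.32% and 4.84% with Royalactin. The essential light chain Myl6, for which 100% of exon tiles also matched elsewhere, differed by -0.58 on the log2 scale (limma adjusted p = 0.601), and the atrial gene Myl7 ranged from 0 to 72.5 normalized counts.

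**Figure D2:**
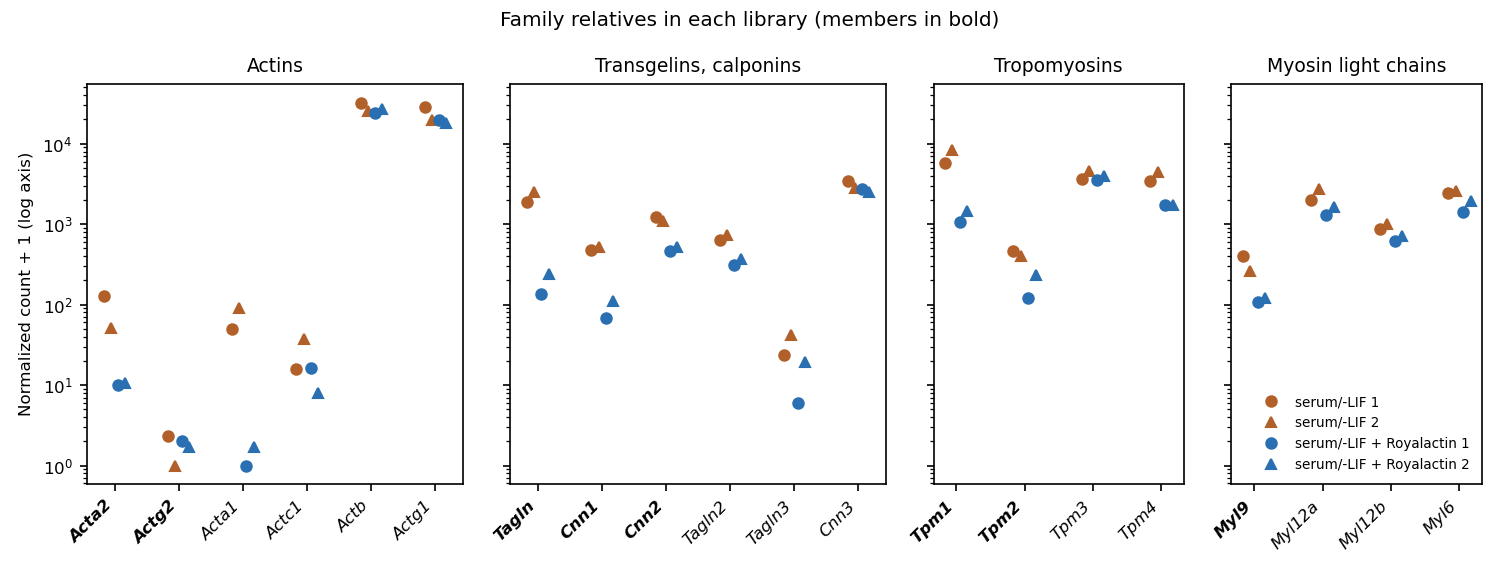
Normalized count + 1 (log axis) in each of the 4 libraries for actins, transgelins and calponins, tropomyosins and myosin light chains, with the members in bold, serum/-LIF in brown, serum/-LIF + Royalactin in blue, circles for replicate 1 and triangles for replicate 2. The members Tagln, Cnn1 and Tpm1 show wide gaps between colours, whereas Actb, Cnn3 and Tpm3 show little or none.

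**Figure D3:**
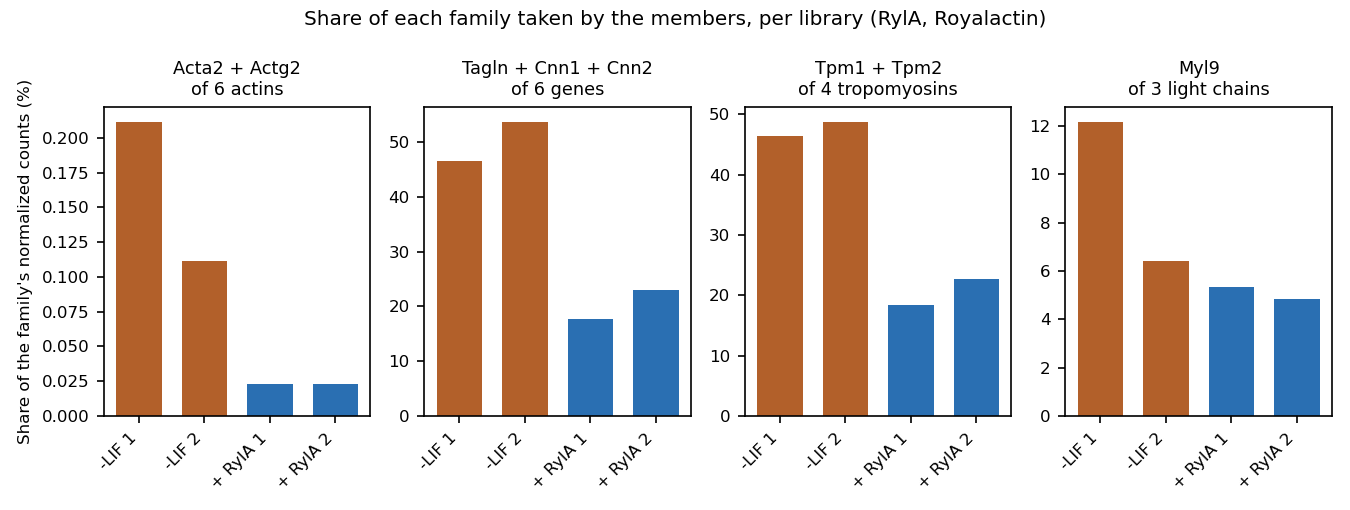
Percentage of the summed normalized counts of each family that came from the members, per library (bars, from 0), with serum/-LIF in brown and serum/-LIF + Royalactin (RylA) in blue. The share is lower in both Royalactin libraries in each of the 4 families, from 46.5% and 53.7% to 17.7% and 22.9% for transgelins and calponins. The members were chosen with their values known, which the shares partly restate.

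Of the 15 relatives listed, 13 were tested and none was called (limma, Benjamini-Hochberg adjusted p under 0.05), where 0.493% of all tested genes were called, and 4 of the 13 had an unadjusted p under 0.05, as did 1214 of the 12993 tested genes. All 13 had a log2 fold change below 0, against 50.6% of tested genes, and the median was -0.68. In 9 of the 13 the conditions did not overlap, with Royalactin on the lower side, against 18.9% of tested genes. Exon tiles also matched elsewhere for 36.1% of Cnn3, 31.8% of Tpm4, 30.5% of Myl12b, 25.1% of Tpm3 and 13.5% of Myl12a, so that their counts, and the family shares that include them, carry the same uncertainty as those of Actb and Actg1. Acta1 and Myl7 passed the filter through serum/-LIF alone. The list of relatives was made with earlier results of these data known, so its shares are a description. Whether members and relatives differ in their change was not tested, since the members were chosen for theirs.

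Srf, the transcription factor itself (chromosome 17, 46683788 to 46693111), had 927 and 531 normalized counts in serum/-LIF and 448 and 547 with Royalactin. The groups overlapped, since serum/-LIF replicate 2 lay below Royalactin replicate 2. Its log2 fold change was -0.50 (standard error 0.36), and it was -0.10 without serum/-LIF replicate 1 and -0.90 without serum/-LIF replicate 2.

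Mkl1 (chromosome 15, 80842711 to 81021187) had 239 and 41.4 normalized counts in serum/-LIF and 150 and 66.8 with Royalactin. Replicates within a condition differed far more than the conditions did. The log2 fold change was 0.00 (standard error 0.75), and it ranged from -1.25 without serum/-LIF replicate 2 to 1.25 without serum/-LIF replicate 1. In both conditions the library numbered 1, with the larger share of Rn45s, had the higher Mkl1 value, and the same held for Mkl2, a paralogous cofactor (435 and 127 in serum/-LIF, 490 and 250 with Royalactin). The part of library composition in these values was not tested.

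Of the 19 other Srf cofactors and their regulators listed, 17 were tested. None was called (limma, Benjamini-Hochberg adjusted p under 0.05), and 0 had an unadjusted p under 0.05. Among all tested genes 0.493% were called, and 1214 of 12993 had such an unadjusted p. With 17 genes these counts do not show that the cofactors were unchanged. The conditions did not overlap in 2 with Royalactin lower and 2 with Royalactin higher, against 18.9% and 19.7% of tested genes. The median log2 fold change of the 17 was -0.09. The largest differences were those of Elk3 (1.91, at 3.11 to 30.2 normalized counts, limma adjusted p = 0.738) and Limk1 (0.75, adjusted p = 0.808) on the higher side, and of Rhob (-0.44, adjusted p = 0.807) and Rock2 (-0.37, adjusted p = 0.745), on the lower side. Elk3 passed the filter through its Royalactin level alone and could only be higher. Myocd, the cofactor most characteristic of smooth muscle, had 8.02 and 0 normalized counts in serum/-LIF and was listed at 0 in both Royalactin libraries.

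The targets of Srf that respond as immediate early genes had a median near 0. Of 10 listed, 7 were tested, with a median log2 fold change of 0.01. None of the 7 was called (limma, Benjamini-Hochberg adjusted p under 0.05), and 0 were at an unadjusted p under 0.05. Among all tested genes 0.493% were called, and 1214 of 12993 had such an unadjusted p. With so few genes these counts do not show that the targets were unchanged. In 1 the conditions did not overlap with Royalactin lower, and in 1 with Royalactin higher, against 18.9% and 19.7% of tested genes. Egr1 had 277 and 224 normalized counts in serum/-LIF and 364 and 171 with Royalactin, and Fos 54.8 and 20.7 against 33.2 and 38.5, so that both overlapped. Ier2 and Mcl1 had the highest log2 fold changes, 0.52 and 0.09 (limma adjusted p = 0.693 and 0.953). The nuclear receptor gene Nr4a1 and the zinc finger gene Egr2 had the lowest, -1.16 and -0.59 (limma adjusted p = 0.696 and 0.965). Nr4a1 was at -0.16 without serum/-LIF replicate 1 and at -2.15 without serum/-LIF replicate 2, and Egr2 passed the filter through serum/-LIF alone.

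Targets of the actin cytoskeleton class were mixed, in a list that was also made with earlier results of these data known. Of 18 listed, 17 were tested, and 1 was called, where 0.493% of all tested genes were, in the direction opposite to the contractile members. This was Lima1, an actin filament stabiliser, which rose from 547 and 449 to 1699 and 1388 normalized counts (log2 fold change 1.63, limma, Benjamini-Hochberg adjusted p = 0.0369). Fblim1, an adaptor of focal adhesions, was also higher in both Royalactin libraries without passing (log2 fold change 1.42, limma adjusted p = 0.211). Zyx, a focal adhesion protein that senses tension, had 412 and 199 normalized counts in serum/-LIF and 124 and 66.1 with Royalactin (log2 fold change -1.65, adjusted p = 0.273). Vcl, vinculin, had 2600 and 1971 against 1362 and 1111 normalized counts, and Vil1 was below 30 in every library (log2 fold change -1.19, limma adjusted p = 0.825). The call of Lima1 was lost under both other scalings, with a pseudocount of 0.1, with no filter and without the variance trend. Its log2 fold change ranged from 1.48 to 1.78 with a library left out. The median over the 17 was -0.33, with 13 below 0, against 50.6% of tested genes. In 7 the conditions did not overlap with Royalactin lower, and in 2 with Royalactin higher, against 18.9% and 19.7% of tested genes. An unadjusted limma p under 0.05 was seen in 5, and in 1214 of the 12993 tested genes. Actb, Actg1 and Tpm4 belong both to this list and to the relatives.

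Other listed genes of the smooth-muscle programme were mostly lower with Royalactin. Earlier results of these data were known when the list was made, so its shares are not independent of them. Of 25 listed, 18 were tested, with a median log2 fold change of -0.62, and 14 were below 0, against 50.6% of tested genes. An unadjusted limma p under 0.05 was seen in 6, not all of them lower, and in 1214 of the 12993 tested genes. After adjustment 1 was called, where 0.493% of all tested genes were. This was Cald1, caldesmon, which binds actin, tropomyosin and calmodulin and has a non-muscle form. It fell from 974 and 1129 normalized counts in serum/-LIF to 209 and 160 with Royalactin (log2 fold change -2.51, limma, Benjamini-Hochberg adjusted p = 0.0046). This call was lost without the variance trend. The log2 fold change of Cald1 ranged from -2.70 to -2.32 with a library left out. Csrp1, a LIM protein on actin bundles (750 and 827 against 246 and 317 normalized counts), Pdlim7 (786 and 583 against 224 and 266) and Pdlim3 (128 and 186 against 54.3 and 26.2) were each lower in both Royalactin libraries without passing. In 11 of the 18 the conditions did not overlap, with Royalactin on the lower side, against 18.9% of tested genes. On the higher side this held for 1 of the 18, against 19.7% of tested genes. The lowest values belonged to Tgfb1i1 and Itga8 (log2 fold changes -3.53 and -3.31, limma adjusted p = 0.528 and 0.549), and the highest to Lmod1 (1.88, adjusted p = 0.831). All 3 were low in reads and passed the filter through the condition where they were higher, which fixed the sign of the difference in means. Tgfb1i1 was at -1.73 and Itga8 at -1.12 without Royalactin replicate 1, and at -5.32 and -5.51 without Royalactin replicate 2. Lmod1 was at 0.028 without serum/-LIF replicate 2 and at 3.73 without serum/-LIF replicate 1.

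The genes that define mature smooth muscle were low and overlapped between conditions. Of 6 such markers, all 6 overlapped, and their summed normalized counts were 317 and 201 in serum/-LIF and 224 and 162 with Royalactin. Myh11, the smooth-muscle myosin heavy chain, had 4.01 and 13.5 normalized counts in serum/-LIF and 0 and 4.82 with Royalactin. Most of the summed level came from Smtn (86 to 177) and Des (40.4 to 116). Mylk, the kinase that activates myosin in smooth muscle, was listed at 0 in both serum/-LIF libraries and had 6.04 and 0 normalized counts with Royalactin. Kcnmb1 had 0 and 33.1 normalized counts in serum/-LIF and 1.01 and 0 with Royalactin, and Lmod1 had 12.0 and 0 against 26.2 and 5.51. The name smooth-muscle genes says what the members are known for, and which cells were present was not tested.

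**Figure D4:**
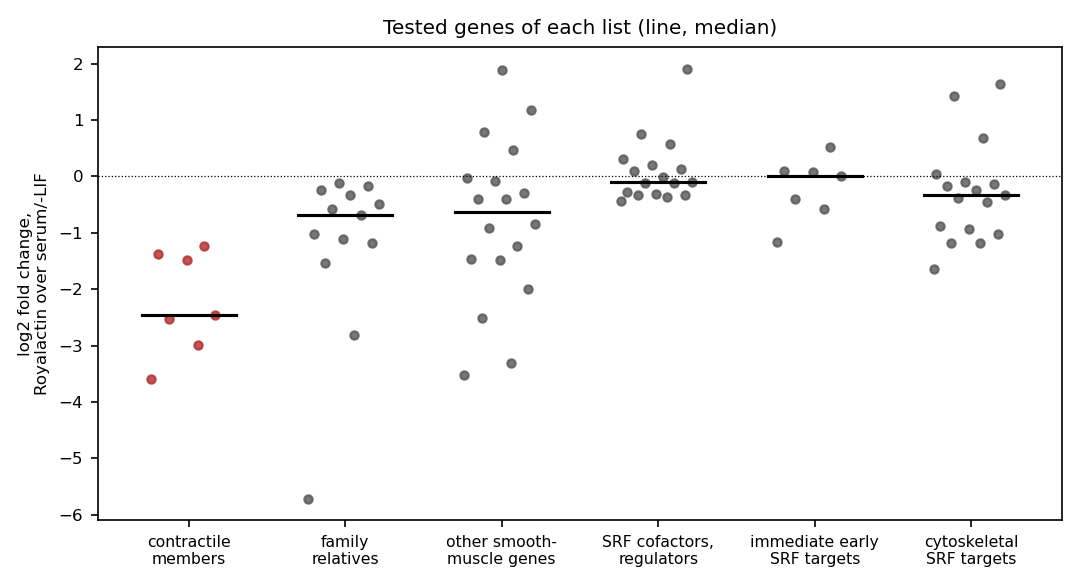
Log2 fold change (Royalactin over serum/-LIF) of the tested genes of 6 lists, each point a gene and each line the list's median, with the contractile members in red. The 7 tested contractile members all lie below -1, and the regulators and immediate early targets of Srf scatter around 0. The members were chosen with these values known, so the difference between lists was not tested.

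Markers of other cells were measured beside these results. The 10 fibroblast markers summed to 164 and 94.2 normalized counts in serum/-LIF and 97.6 and 69.5 with Royalactin, with overlap between conditions. Of these, Fap, Pdgfrb and Postn were at 0 in all libraries, and Col1a1, Col3a1 and Dcn were lower in both Royalactin libraries, Dcn at 37.4 and 31.1 against 0 and 0. The other 4 overlapped: Thy1 (29.6 to 45.3), Pdgfra (52.2 and 0 against 42.2 and 32.4), Col1a2 (0 and 1.04 against 10.1 and 0) and Lum (0 and 11.4 against 0 and 0). The 8 striated-muscle markers summed to 112 and 119 against 218 and 226, with Ckm, Myod1 and Tnnt2 at 0 throughout. The largest single part of this sum was Ryr2 (73.6 and 48.6 against 177 and 191), whereas Myh6 and Nkx2-5 were lower in both Royalactin libraries. The 4 endothelial markers summed to 348 and 200 against 874 and 843, mostly Pecam1 and Tek. The summed mESC markers were 25147 and 31236 in serum/-LIF and 33775 and 41025 with Royalactin, and 3 of the 8 were called higher, where 0.331% of all tested genes were: Esrrb, Zfp42 and Sox2 (limma, Benjamini-Hochberg adjusted p = 0.00273, 0.00371 and 0.0368). Tdgf1, another of the 8, had 10914 and 14553 normalized counts in serum/-LIF and 8696 and 9728 with Royalactin. The summed contractile members were thus lower, and the summed mESC markers higher, in both Royalactin libraries. The part of each of these cell types in the levels of the members was not tested.

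Per kilobase of exon, which allows genes to be compared, Tagln had the highest mean level of the members in serum/-LIF, at 1394 ± 280.1 normalized counts per kilobase (SD, n = 2). Tpm1 followed at 1074 ± 280.0, and their ranges overlapped. Then came Cnn2 (470.0 ± 41.1) and Myl9 (283 ± 86.5), which did not overlap with each other, and Cnn1, Srf and Tpm2 (211 to 150 per kilobase). Neighbours from Myl9 to Tpm2 in this order overlapped, and Tpm2 did not overlap with Acta2 below it. Acta2 and Mkl1 overlapped at 50.3 ± 30.8 and 22.9 ± 22.9. With Royalactin the order changed. Cnn2 and Tpm1 led and overlapped at 198 ± 16.3 and 195 ± 42.8 per kilobase, followed by Srf (122 ± 17.2), Tagln (118 ± 46.7) and Myl9 (98.1 ± 7.81), whose neighbours overlapped. Acta2 was last but for Actg2, at 5.25 ± 0.232.

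**Figure D5:**
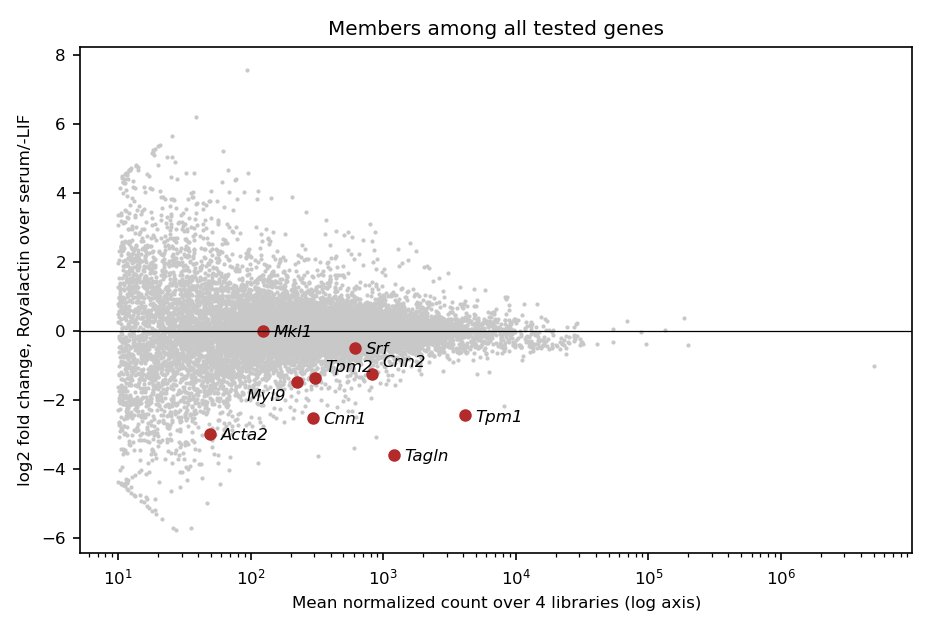
Log2 fold change (Royalactin over serum/-LIF) against the mean normalized count over the 4 libraries (log axis) for all 12993 tested genes in grey, with the 9 tested members in red. At their expression levels Tagln, Tpm1 and Cnn1 lie at the lower edge of the cloud, and Mkl1 lies at 0.

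The pattern of Tagln over the 4 libraries was most closely shared, by the root-mean-square difference of centred log2 values, by B4galnt2 (0.13), Ptprm (0.17), Fcgr3 (0.23), Slc8a1 (0.26) and Wipf3 (0.26). These genes were expressed at much lower levels than Tagln, from 18.7 to 166 normalized counts in serum/-LIF and from 0 to 13.8 with Royalactin. With 4 libraries in 2 conditions this likeness mostly restates the size of the difference, and none of the 5 was called (limma, Benjamini-Hochberg adjusted p from 0.0877 to 0.621, with 4 of 5 at an unadjusted p under 0.05).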

How the data were processed

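RNA-seq of J1 mESCs (2 libraries in serum/-LIF, 2 in serum/-LIF + Royalactin) was grouped by sample titles, to which the columns correspond. After alignment to mm9 (Tophat) and gene counting (HTSeq-count), the authors deposited counts divided by DESeq size factors, a signal proportional to reads. Strand setting and annotation are not given in the sources used here. In each library 100% of values were whole multiples of 1 step (within 0.01 of a read), and reads are values divided by it. One step was too near 1 for an automatic check of whole reads, so no count test was run.

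Differences were tested with limma 3.58.1 in R 4.3.3 (trend, two-sided, Benjamini-Hochberg adjustment) on log2(normalized count + 1), which understates changes of low genes, for a mean of at least 10. The step was tested on simulated data. Floors cover counting error only. The members and lists were chosen with earlier results of these data known. Genes named are the members, their family relatives, called genes, the 2 highest and 2 lowest of each list (except a gene not reported here), and the 5 genes nearest to Tagln. A few others were chosen after their values were seen, as examples. Positions, overlaps and exon lengths come from GENCODE (mm9), for Myl12a through an older symbol. Exon tiles of 75 bases, every 25 bases, were mapped with minimap2 2.31-r1302. Alternatives were pseudocounts of 0.1 and 5, other filters, other scalings, a fit without the trend, a replicate block and omission of each library.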

Additional observations from a re-analysis of the deposited data

How the results depend on the processing

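The number of genes called, 64 (43 higher, 21 lower), was 32 (22 and 10) with a pseudocount of 0.1, 34 (24 and 10) over all genes with a value above 0, and 99 (37 lower) where the mean had to reach 50. A fit with no variance trend called 0, with the members, the other smooth-muscle genes and the cytoskeletal targets at 0 as well. Fits without 1 library leave a lone library in a condition, which was assumed to vary like the other condition's pair. With fewer libraries a call can be lost although the difference stays, so log2 fold changes alone are given. With a library left out they ranged from -4.01 to -3.19 for Tagln, from -2.72 to -2.18 for Tpm1 and from -2.89 to -2.17 for Cnn1. Lower calls fell to 12 with upper-quartile scaling and to 11 with scaling to the total without Rn45s. The cytoskeletal list's 1 call was lost (0) under both scalings, with a pseudocount of 0.1 and over all genes. The other smooth-muscle genes had 2 calls with that stricter filter. The replicate numbers were not taken as pairs, since neither the labels nor the study's methods pair them. Deviations of same-numbered libraries correlated at 0.0851 across genes, but both libraries numbered 1 had the larger share of Rn45s. Whether same-numbered libraries share a batch was not tested. With the replicate numbers as a block there were 391 calls (222 higher, 169 lower), with 6 members, 1 relative, 3 other smooth-muscle genes and 4 cytoskeletal targets. The median of the members, -1.49, ranged from -1.86 to -1.28 with a library left out.

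The 7 contractile members kept their direction under every scaling, pseudocount and left-out library. For pseudocounts and left-out libraries this was fixed in advance, since both Royalactin libraries lay below both serum/-LIF libraries for each gene. It is therefore no separate support. Mkl1, with a log2 fold change of 0.00, had -0.014 with a pseudocount of 5 and ranged from -1.25 to 1.25 with a library left out, with -0.58 without Royalactin replicate 1. Signs also turned with a library left out for genes that were never called: Tpm3 ranged from -0.30 to 0.054, Limk1 from -0.58 to 2.09, Rhob from -0.90 to 0.026, Mcl1 from -0.062 to 0.25 and Egr2 from -3.08 to 1.91, with 1.32 without Royalactin replicate 2. With 1 mismatch allowed in the box, 6 members had one. What caused these shifts was not tested. Depth limits Actg2, Acta1 and Acta2.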
